A study of Caenorhabditis elegans with 2 samples.

Results

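Regions of LIM-6-GFP chromatin immunoprecipitation signal at transfer RNA (tRNA) genes of Caenorhabditis elegans are described here. A region was taken when its summit, the point of highest enrichment, lay within 250 bp of a nuclear gene that the Ensembl annotation classes as tRNA. Of the 25887 regions in the authors' pooled list on the ce11 assembly, 368 met this rule and 25519 did not. The study had immunoprecipitated chromatin of whole late embryos with an anti-GFP antibody and sequenced it. The strain was OP388, genotype unc-119(ed3) III; wgIs388, whose transgene makes LIM-6 with a GFP-FLAG tag at its C terminus. Embryos were hermaphrodite, synchronized by bleaching of eggs and collected 5 hours later, and the chromatin was sheared by sonication. There were 2 libraries, biological replicates 1 and 2 of 1 group, so there is no contrast between conditions and no p-value is given. Tagged protein came from a transgene, chromatin came from every cell of the embryo, and control libraries were not used here. Regions are not replicates of each other, and many tRNA genes share their sequence.

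Genes for tRNAs are transcribed by RNA polymerase III from a promoter that lies inside the gene. Its A box and B box are bound by the factor TFIIIC, which places TFIIIB just upstream of the transcription start. LIM-6 is a LIM homeodomain transcription factor known for its role in a small number of neurons and other cells of the worm, and homeodomains of this class bind AT-rich sites with the core TAATTA.

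The sequence of the tRNA gene under the highest region is shown first because the summit lay inside this gene, which carries an internal promoter. Capitals mark the B box, the bases GGTTCGA followed by any 2 bases and CC, searched on both strands. The summit lay 18 bp from the 5′ end of the first gene, whose B box starts at base 98 of 119. The second sequence is that of the selenocysteine tRNA gene, which also holds a B box and had no region within 250 bp in the pooled list. Both were read from the RefSeq genome of the WBcel235 assembly (ce11).
C04A11.t1, ce11 chrX:13665555-13665673, plus strand: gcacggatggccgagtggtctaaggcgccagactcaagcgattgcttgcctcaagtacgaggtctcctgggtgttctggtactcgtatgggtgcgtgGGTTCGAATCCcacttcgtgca
K11H12.t1, ce11 chrIV:658181-658266, plus strand: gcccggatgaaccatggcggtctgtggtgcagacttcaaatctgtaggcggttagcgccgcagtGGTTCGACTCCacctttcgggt
The next sequences are the 100 bases upstream of the gene, read 5′ to 3′ on its strand, for 6 of the 24 annotated proline tRNA genes that are identical over all 72 bases of the gene. Both larger sets hold copies whose sequences are not printed here. The genes are the 3 copies with the highest signal, listed first, and the 3 with the lowest among the copies nearest to a region. They are shown because the genes themselves cannot be told apart by sequence and only the flanks differ. Capitals mark GAGAGA or its complement TCTCTC.
F46G11.t2, ce11 chrX:5801283-5801382, minus strand: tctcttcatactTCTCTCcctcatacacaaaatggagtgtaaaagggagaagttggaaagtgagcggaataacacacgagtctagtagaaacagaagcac
T23F1.t2, ce11 chrV:15465297-15465396, minus strand: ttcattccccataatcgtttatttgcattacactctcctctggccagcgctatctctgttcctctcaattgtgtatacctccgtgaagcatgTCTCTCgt
ZK899.t1, ce11 chrX:9467801-9467900, minus strand: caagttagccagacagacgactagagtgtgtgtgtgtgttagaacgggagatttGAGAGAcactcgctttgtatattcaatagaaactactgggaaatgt
T22F3.t1, ce11 chrV:3582220-3582319, plus strand: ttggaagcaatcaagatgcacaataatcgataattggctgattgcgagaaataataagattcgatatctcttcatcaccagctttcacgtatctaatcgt
W09D6.t2, ce11 chrIII:11066920-11067019, minus strand: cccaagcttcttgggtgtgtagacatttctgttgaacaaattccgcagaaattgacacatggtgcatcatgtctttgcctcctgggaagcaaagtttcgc
F23D12.t1, ce11 chrX:14438002-14438101, plus strand: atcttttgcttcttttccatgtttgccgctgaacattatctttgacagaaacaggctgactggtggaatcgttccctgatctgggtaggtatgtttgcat
The pooled signal at these copies was 147 for F46G11.t2, 127 for T23F1.t2, 82.1 for ZK899.t1, 25.5 for T22F3.t1, 23.0 for W09D6.t2 and 21.6 for F23D12.t1. The capitals occur in each of the 3 highest copies and in none of the 3 lowest. They also occur upstream of Y71H2AM.t1, another copy of the set, which was nearest to no region. Both larger sets were less orderly. Among 29 glycine copies the highest, F56C3.t1 (142) and K09C8.t1 (98.9), lacked the motif, and among 25 lysine copies B0350.t1 (89.7) lacked it while F55F3.t2 (23.5) had it. Signal is the authors' enrichment value per region. It has no stated scale. Levels were compared within a list, and the libraries as ratios beside the same ratios over all other regions.

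Of the 368 tRNA regions, 59 were in the list that passed the authors' threshold of irreproducible discovery rate (IDR), here called reproducible. That is 16.0% (95% exact interval 12.4 to 20.2%), against 511 of the 25519 other regions, 2.00%, and 2.20% of all pooled regions. Median pooled signal was 39.6 for tRNA regions (quartiles 27.7 and 66.1) and 27.9 for the other regions (23.6 and 35.3), a 1.42-fold difference. The 59 reproducible tRNA regions had a median of 113, against 103 for the 511 other reproducible regions. The reproducible list held exactly the regions of highest pooled signal: its lowest value was 80.035 and the highest value outside it was 80.032. At that edge, the lowest tRNA region inside the list had a signal of 80.6 and the highest outside it had 79.96. Of the 309 tRNA regions outside the list, 16 overlapped a reproducible region. At the other edge of the rule, summits 237 to 246 bp from a tRNA gene had signals of 20.9 to 34.9 and those 251 to 264 bp away had signals of 22.2 to 53.8, and none was reproducible.

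Many windows at tRNA genes were not unique in the genome. In the 201 bp around each summit, the share of 31-base words that occur once in the genome had a median of 73.4% at tRNA regions, against 100% at the other regions. Where this share was at least 90%, 2 of 118 tRNA regions were reproducible (1.69%), against 462 of 23366 other regions (1.98%). The median signal of the 118 was 28.5. The 2 reproducible ones lay beside the isoleucine gene F57F5.t1 (signal 123) and the arginine gene F41D9.t1 (94.2). Where the share was between 60 and 70%, 32 of 119 tRNA regions were reproducible (26.9%), against 7 of 278 other regions (2.52%), and between 70 and 80% the counts were 21 of 91 and 3 of 459. Unique windows were also farther from the gene, since only 7 of the 118 had their summit inside it, against 85 of the 119. Across tRNA regions signal had a Spearman correlation of −0.41 with the unique share (368 regions), and of −0.04 among the 138 whose summit lay inside the gene. Both are descriptions over regions of 1 list that share sequence. How the authors' alignment placed reads that match several sites was not stated in these sources, and its part in the tRNA signal was not tested.

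The highest tRNA region (chrX:13665361-13665784) lay at C04A11.t1, an intergenic leucine tRNA gene, at 209.6 in the pooled list, 102 in replicate 1 and 103 in replicate 2. It ranked at place 29 among all pooled regions. C04A11.t1 has no identical copy in the genome, and 78.4% of the words in its window were unique. Next came the lysine gene W03G11.t1 (region chrX:12106012-12106435) with 199 (84.7 in replicate 1 and 112 in replicate 2), 1 of 25 identical copies. The isoleucine gene C42D8.t1 (region chrX:5085425-5085848) followed with 173 (78.1 and 91.8 in replicates 1 and 2). Of the 10 highest, 9 lay on X and 6 were in introns of protein-coding genes. The aspartate gene F38G1.t2 (169) lay in an intron of egl-17, which encodes a fibroblast growth factor, on the opposite strand. The tyrosine gene C02B4.t2 (167) lay in nhr-17, a nuclear hormone receptor gene, and the alanine gene F15G9.t1 (165) in him-4, which encodes the extracellular matrix protein hemicentin. The asparagine gene F41D9.t3 (165) was in sulp-3, the lysine gene C33G3.t2 (162) was intergenic, and the glycine gene F17H10.t1 (154) was in snx-17. The only autosomal gene of the 10 was sup-5 (region chrIII:8678330-8678753), at 152 in the pooled list, 71.7 in replicate 1 and 79.96 in replicate 2. It lies in an intron of fli-1 on the same strand.

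The sup and rtw loci are tryptophan tRNA genes. Several were first found as nonsense suppressors, in which a changed anticodon reads the amber stop codon. Of these 9 named genes, 4 had a region and 1, sup-5, a reproducible one, against 58.0 and 10.6% of all 612 tRNA genes. The other signals at the named genes were 41.3 at sup-24, 30.9 at sup-28 and 28.2 at sup-7, all well under the lowest reproducible value. The sup-21, sup-29, sup-33, rtw-5 and rtw-6 genes had none within 250 bp. The tryptophan genes include a set of 10 with identical sequence.

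Every one of the 20 standard amino acids had at least 1 reproducible tRNA region. Leucine had the most, 7 of 24 regions, followed by arginine with 5 of 30. Alanine, glutamate, glycine, lysine and serine had 4 each, of 24, 25, 32, 33 and 19 regions. Tyrosine had the highest share, 3 of 7 (42.9%, interval 9.90 to 81.6%), and the highest median signal, 69.8. Valine had the lowest share, 1 of 17 (5.88%, interval 0.149 to 28.7%). The intervals of these isotypes overlap, so the order of the shares is not resolved at these numbers. Median signal ran from 29.9 for phenylalanine to 49.6 for leucine among the isotypes other than tyrosine. The 7 tyrosine regions had signals of 167, 93.2, 86.9, 69.8, 29.7, 24.7 and 20.8, with a gap between the fourth and the fifth. The leucine regions ran from 24.6 to 209.6.

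**Figure D1:**
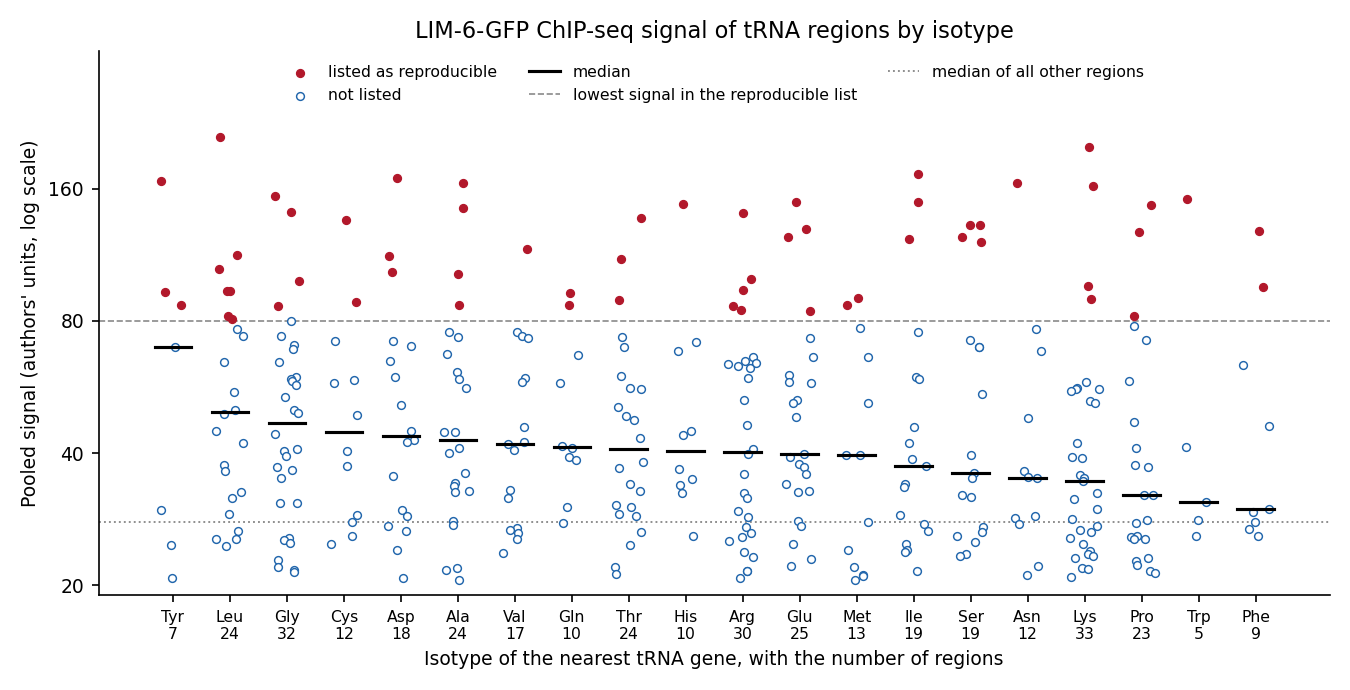
Pooled signal on a log scale for each tRNA region, by the isotype of its nearest tRNA gene, ordered by median, with the number of regions under each name. Filled points are reproducible; black lines are medians; 2 regions of unassigned isotype are not drawn. Each isotype has at least 1 filled point above the dashed line, and every median lies above the dotted median of all other regions.

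The highest region of each isotype lay on X for 17 of the 20 amino acids. The exceptions were sup-5, the cysteine gene C37A2.t1 on chromosome I in an intron of the cyclin E gene cye-1 (signal 136), and the serine gene ZC455.t1 on V in an intron of ZC455.1 (133). The other highest genes not yet named were M02F4.t2 for glutamate (149), C06G1.t1 for histidine (148), F46G11.t2 for proline (147), F28H6.t1 for arginine (141) and R01H5.t1 for threonine (137). T28B4.t1 for phenylalanine, in an intron of the F-box gene fbxl-4, had 128, and R04D3.t2 for valine had 116. The lowest of the isotypes' highest signals were 92.7 at R04A9.t1 for glutamine and 89.98 at F22F1.t6 for methionine. No region was found for selenocysteine, whose only gene, K11H12.t1 on IV, lies in an intron of K11H12.8. This gene is single-copy and its surroundings were 100% unique. RefSeq names no amino acid for 5 tRNA genes, and their 2 regions had signals of 38.4 and 22.5.

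Chromosome X holds 276 of the 612 nuclear tRNA genes (45.1%), or 15.6 genes per Mb, against 3.73 to 4.64 per Mb on the autosomes. On X, 146 regions were at tRNA genes and 36 were reproducible (24.7%, interval 17.9 to 32.5%), against 23 of 222 on autosomes (10.4%, 6.68 to 15.1%). Their median signal was 46.9 on X and 37.3 on autosomes. Regions away from tRNA genes ran the other way, with 58 of 4176 reproducible on X (1.39%) and 453 of 21343 on autosomes (2.12%). Thus tRNA regions made up 36 of all 94 reproducible regions on X (38.3%), against 4.83% of the 476 on autosomes. By chromosome the reproducible counts were 36 of 146 on X, 4 of 47 on I, 5 of 36 on II, 6 of 40 on III, 2 of 49 on IV and 6 of 50 on V. The interval for X overlaps those of I, II, III and V, and lies above that of IV.

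**Figure D2:**
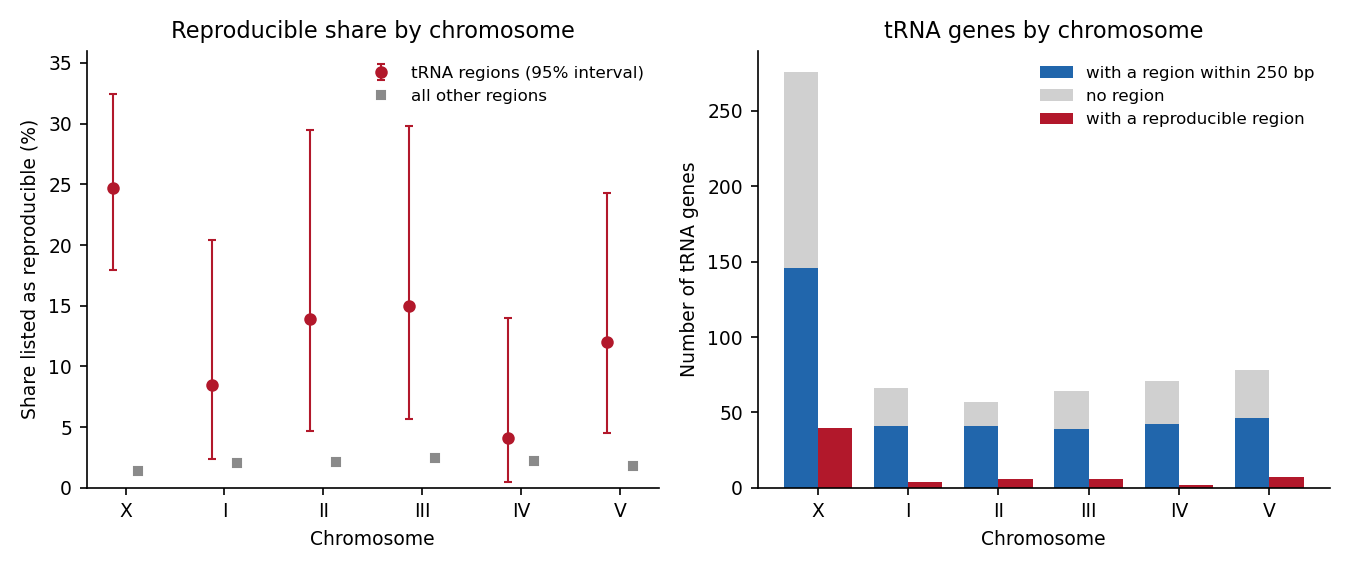
Left, share of regions listed as reproducible on each chromosome, for tRNA regions with exact 95% intervals and for all other regions; right, number of tRNA genes with and without a region within 250 bp and with a reproducible one. The tRNA share is 24.7% on X and 4.08 to 15.0% on the autosomes, while the share of other regions lies between 1.39 and 2.48% on every chromosome.

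Counted by gene, the share of tRNA genes with a region was not higher on X. A region lay within 250 bp of 146 of 276 tRNA genes on X (52.9%, interval 46.8 to 58.9%) and of 209 of 336 on autosomes (62.2%, 56.8 to 67.4%). A reproducible region lay near 40 genes on X (14.5%) and 25 on autosomes (7.44%). The higher share of reproducible regions on X was also seen within strata. With the summit inside the gene it was 24 of 66 on X (36.4%) and 14 of 72 on autosomes (19.4%). Outside the gene it was 12 of 80 and 9 of 150. The intervals of X and autosomes overlapped in both of these strata. Among genes with over 5 identical copies in the genome the share was 28 of 109 on X (25.7%) and 14 of 140 on autosomes (10.0%). With 2 to 5 copies it was 6 of 15 on X and 7 of 33 on autosomes, with overlapping intervals. Median signal in that stratum was 47.6 on X and 56.0 on autosomes. For single-copy genes the counts, 2 of 22 on X and 2 of 49 on autosomes, were too small to order. The single-library lists showed the same order. In replicate 1, 33 of 142 tRNA regions on X were among the 570 highest of that list (23.2%), against 20 of 176 on autosomes (11.4%). In replicate 2 the counts were 40 of 136 on X (29.4%) and 21 of 220 on autosomes (9.55%).

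Summits gathered on the gene itself. The summit lay inside the tRNA gene at 138 regions, upstream of its 5′ end at 127 and downstream of its 3′ end at 103. Reproducible counts were 38 of 138 inside (27.5%), 17 of 127 upstream (13.4%) and 4 of 103 downstream (3.88%). By distance, 20 of the 117 summits 1 to 50 bp from the gene were reproducible (17.1%), 1 of the 51 at 51 to 100 bp, and 0 of the 62 beyond that. Of the 36 further regions 251 to 500 bp away, which are not members, 0 were reproducible. Median signal was 57.7 inside the gene, 41.3 at 1 to 50 bp and 26.5 at 201 to 250 bp, the last below the 27.9 of all other regions. The median summit of the 59 reproducible regions lay 10 bp into the gene (quartiles 5 bp upstream and 38 bp into it). For the other 309 it was 29 bp from the 5′ end, with quartiles 25 bp upstream and 100 bp downstream of that end. Of these 309, 100 had their summit inside the gene, 110 upstream and 99 downstream. The single reproducible region more than 50 bp away was that of F41D9.t1, with its summit 62 bp upstream. Distance and signal had a Spearman correlation of −0.46 over the 368 regions, as a description.

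**Figure D3:**
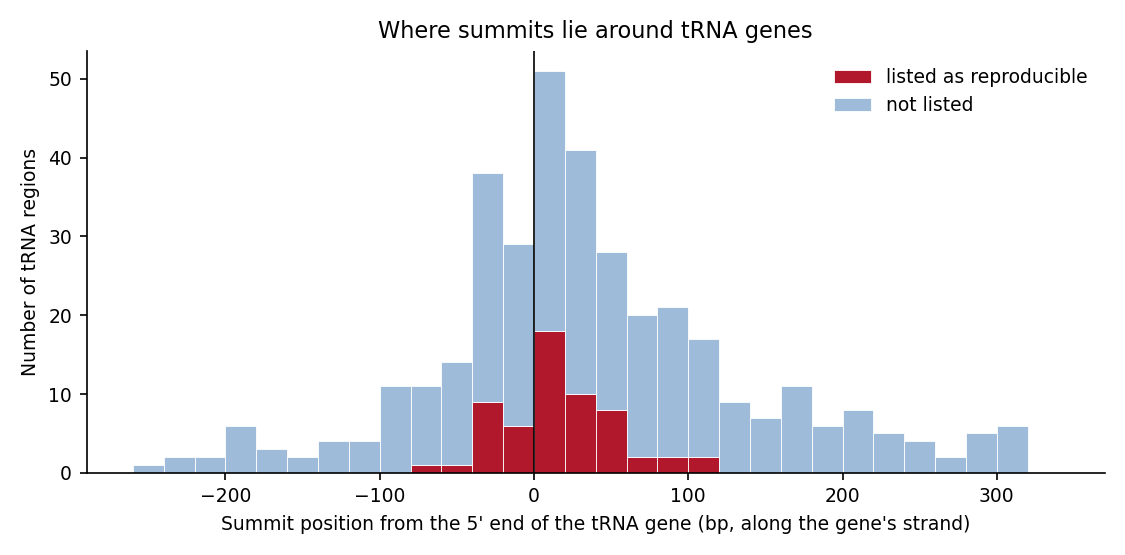
Number of tRNA regions by the position of their summit from the 5′ end of the nearest tRNA gene, in bins of 20 bp along the strand of the gene. Reproducible regions (bottom part of each bar) lie between 62 bp upstream and 105 bp downstream of the 5′ end, and 38 of the 59 lie within the gene.

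Shares at tRNA genes between and inside protein-coding genes overlapped. Of the 185 regions at intergenic tRNA genes 34 were reproducible (18.4%, interval 13.1 to 24.7%), and of the 178 at genes inside introns 23 were (12.9%, 8.37 to 18.8%). The remaining 5 regions were at tRNA genes that overlap an exon of a protein-coding gene, and 2 of them were reproducible. Median signal was 39.2 and 39.7 at intergenic and intronic genes. Within introns, 10 of 104 regions were reproducible where the host gene ran on the same strand (9.62%) and 13 of 74 where it ran on the opposite strand (17.6%), again with overlapping intervals. The order of X and autosomes was found in both places, with 23 of 91 on X and 11 of 94 on autosomes for intergenic genes, and 12 of 54 and 11 of 124 for intronic ones. The intervals of X and autosomes overlapped in both places. Promoters of protein-coding genes, from 1000 bp upstream to 500 bp downstream of a 5′ end, held 114 of the tRNA regions. Of these 18 were reproducible (15.8%), against 41 of the 254 outside promoters (16.1%). Away from tRNA genes the shares were 3.71% inside promoters and 0.973% outside them. Where the nearest gene had no other tRNA gene within 500 bp, 49 of 306 regions were reproducible (16.0%, interval 12.1 to 20.6%), and 10 of 62 were where it had 1 or more (16.1%, 8.02 to 27.7%).

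In the single-library lists, 283 of the 368 tRNA regions had an overlapping region in both (76.9%, interval 72.3 to 81.1%), against 46.0% of the other regions. Of the rest, 29 were found in replicate 1 alone, 48 in replicate 2 alone and 8 in neither. One library region could match several pooled regions. In each library 90 tRNA regions shared theirs with another tRNA region. Among the other regions 4598 did so in replicate 1 and 4909 in replicate 2. Some library signals therefore enter the counts and ratios below more than once. All 59 reproducible tRNA regions were found in both, as were all 511 other reproducible regions. The IDR threshold largely fixes this in advance. Of the 59, 41 ranked within the top 570 of each library, against 311 of the 511. The mean log2 ratio of replicate 1 over replicate 2 was −0.17 ± 0.52 (SD over 283 tRNA regions), against −0.01 ± 0.51 over the 11743 other regions found in both. Replicate 2 was the higher library at 184 of the 283 (65.0%), against 50.1% of the other regions. Among reproducible regions it was the higher at 74.6% of the 59 at tRNA genes and 56.4% of the 511 others. Their mean log2 ratios were −0.23 and −0.07. With 1 library on each side, the source of this offset was not tested. Among reproducible tRNA regions the ratio was lowest at the leucine gene C04A2.t1 on II (−0.99), with signals of 33.8 in replicate 1 and 67.2 in replicate 2. It was −0.83 at R04A9.t1 and −0.81 at the isoleucine gene T21B4.t1, which lies in an intron of the collagen gene col-85. The highest ratio was 1.00 at the glutamine gene T03E6.t1 on V, with 53.0 in replicate 1 and 26.5 in replicate 2. ZC455.t1 had a ratio of 0.52 and the lysine gene B0350.t1 on IV had 0.50. T03E6.t1 thus ranked at place 268 in replicate 1 and 2810 in replicate 2.

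**Figure D4:**
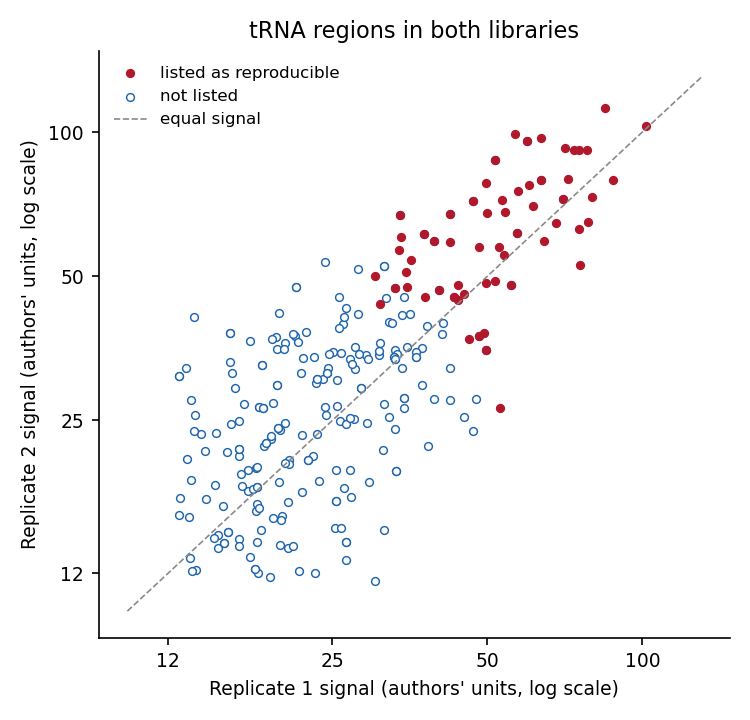
Signal in replicate 2 against signal in replicate 1, both on log scales, for the 283 tRNA regions found in both single-library lists; the dashed line marks equal signal. Points lie above the line at 184 regions, and the reproducible regions fill the upper right corner with T03E6.t1 as the lowest of them in replicate 2.

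Identical copies of a tRNA gene differed widely. The 612 genes have 200 distinct sequences, and 469 of the genes fall into 57 sets of 2 or more identical copies. Each region was counted here under its nearest gene, so a copy close to a region can be nearest to none. In the 43 sets with 2 or more copies nearest to a region, the highest copy was a median of 3.74-fold above the lowest. The SD of log2 signal within a set had a median of 0.72, and the SD over all genes with a region was 0.80. The first is a median over sets and the second a single SD, so they are not like measures. Both leave out copies nearest to no region. How reads inside identical genes were placed was not stated in these sources, and its part in these differences was not tested. Of the 32 sets with at least 5 copies, every one had a copy with no region within 250 bp, and in 27 some copies were nearest to a reproducible region and others were not. The widest range was in the set of 25 lysine genes, from 23.3 at K11E4.t5 to 199 at W03G11.t1, an 8.52-fold difference. In the largest set, 29 glycine genes, 14 copies were nearest to a region, 3 of them to a reproducible one, and 18 had a region within 250 bp, 4 of them a reproducible one. Its signals ran from 25.4 at K04C2.t2 to 142 at F56C3.t1. Of the 24 proline genes whose flanks are printed above, 11 were nearest to a region, 3 of them to a reproducible one. A region lay within 250 bp of 15 of them, a reproducible one within 250 bp of 4, and 9 had none. A set of 10 arginine genes, all on X, had 7 copies nearest to a region, with none reproducible and a highest signal of 66.2. A set of 9 leucine genes, also all on X, had 2 copies nearest to a region, with signals of 105 and 76.6. Within 250 bp, 8 of the 10 arginine and 2 of the 9 leucine copies had a region. A reproducible one lay near 0 and 1 of these copies. Over all 276 tRNA genes on X the shares were 52.9% with a region and 14.5% with a reproducible one. By number of genome copies, 4 of 71 regions at single-copy genes were reproducible (5.63%, interval 1.56 to 13.8%), against 13 of 48 at genes with 2 to 5 copies (27.1%, 15.3 to 41.8%). The shares were 12 of 61 with 6 to 10 copies (19.7%) and 30 of 188 with over 10 (16.0%), so the share did not grow steadily with copy number.

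Flanks of the genes did differ with signal. GAGAGA, on either strand, occurred in the 100 bp upstream of 30 of the 59 tRNA genes nearest to a reproducible region (50.8%, interval 37.5 to 64.1%). It occurred upstream of 56 of 268 genes nearest to other regions (20.9%, 16.2 to 26.3%) and of 23 of 285 nearest to none (8.07%, 5.18 to 11.9%). For windows of the same length, 5.13% of all 100 bp tiles of the 6 nuclear chromosomes hold the motif. In the 100 bp downstream of the gene the shares were 6.78, 2.61 and 3.51% for the same 3 groups, without the order seen upstream. Both chromosome classes showed the upstream order, with 55.6, 26.0 and 5.56% on X and 43.5, 18.0 and 10.6% on autosomes. Seen the other way, 30 of the 109 genes with the motif upstream were nearest to a reproducible region (27.5%, interval 19.4 to 36.9%), against 29 of the 503 without it (5.77%, 3.89 to 8.18%). Any region was nearest to 78.9% of the genes with the motif and 47.9% of those without. The motif was upstream of 6 of the 10 genes with the highest signal, including C04A11.t1, W03G11.t1, C42D8.t1 and sup-5. It was written as TCTCTC on the strand of the tRNA gene at 71 of the 109 genes and as GAGAGA at 41, with both at 3. A match says only that these letters are present, and which factor reads them, if any, was not tested. The flank counts were made after the data had been seen.

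The same held where the gene itself was identical. Among the 402 genes in sets of at least 5 identical copies, 23 of 76 with the motif upstream were nearest to a reproducible region (30.3%, interval 20.2 to 41.9%), against 21 of 326 without it (6.44%, 4.03 to 9.68%). Of the 26 such sets that had copies of both kinds and a reproducible region, the share was higher among copies with the motif in 18 and lower in 8. Some genes of high signal lacked the motif in those 100 bases. C02B4.t2, F15G9.t1, C33G3.t2, F17H10.t1 and M02F4.t2 did so, at signals of 167, 165, 162, 154 and 149.

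**Figure D5:**
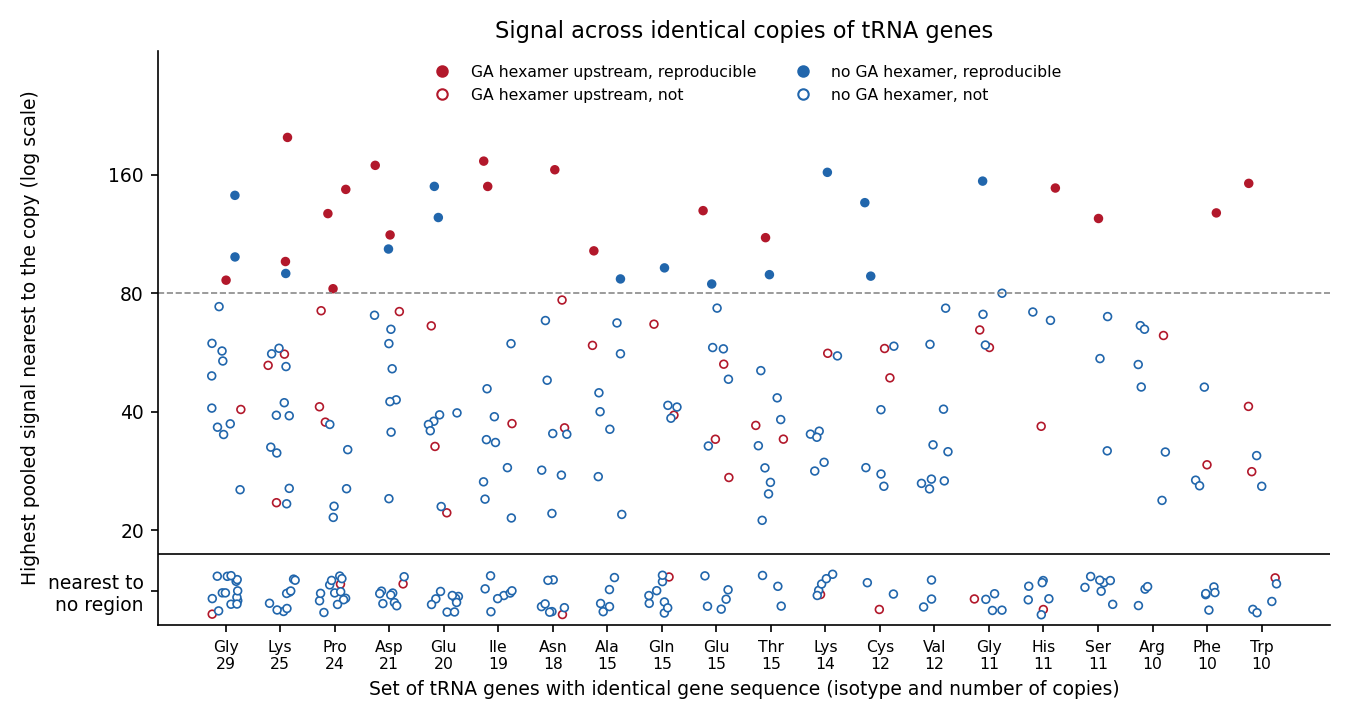
Highest pooled signal nearest to each copy, on a log scale, for the 20 largest sets of identical tRNA genes, with copies nearest to no region below the solid line. Red marks copies with GAGAGA on either strand in the 100 bp upstream and blue those without, filled points are reproducible, and the dashed line is the lowest reproducible signal. Every set spreads from copies nearest to no region to copies with a signal over 60, and red points are more frequent among the filled ones.

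Within 100 bp of the summit, GAGAGA was found at 23.4% of tRNA regions and 47.5% of reproducible tRNA regions, against 17.5% of all other regions and 33.1% of other reproducible regions. TAATTA was found at 4.35% of tRNA regions and 5.08% of reproducible ones, against 7.62% of other regions and 8.61% of other reproducible ones. The A box, searched by its usual consensus, was in all 59 reproducible tRNA windows and in 73.9% of all tRNA windows, against 14.7% of other windows. It was present in 592 of the 612 tRNA genes (96.7%). With the summit inside the gene or within 50 bp, 58 of 255 regions were reproducible, against 1 of 113 farther away. Closeness to the gene thus largely fixes the A box shares in advance, and they do not test a role of the A box. The same limit holds for the B box, which was in 64.4% of reproducible tRNA windows and 43.8% of all tRNA windows, against 0.553% of other windows. Its strict form was present in 394 of the 612 genes, and a region lay within 250 bp of 58.4% of those, against 57.3% of the 218 without it. The 141 other regions that hold a B box had a median signal of 28.9, and 7 were reproducible (4.96%).

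Other genes of the RNA polymerase III pathway were counted as well. None of the 16 genes for 5S ribosomal RNA had a summit within 250 bp, against 58.0% of tRNA genes with a region. Most of the 16 lie close together on V, and how unique their windows are was not measured. Whether signal could be detected there was not tested. Of 13 protein-coding genes, 3 had a region in their promoter, against 41.0% of all 19973 protein-coding genes, and none had a reproducible one, against 2.61%. These were rpc-1, which encodes the largest subunit of RNA polymerase III, with 41.5, and snpc-3.4 and snpc-3.2, which encode subunits of the small nuclear RNA activating complex, with 28.3 and 24.7. The TFIIIB genes brf-1 and tbp-1 had none. Genes for U6 small nuclear RNA and for the RNA of the signal recognition particle were not analysed here.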

How the data were processed

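Chromatin immunoprecipitation of LIM-6-GFP had been sequenced from 2 libraries. The authors deposited, per the file headers and notes, relaxed lists of regions for each library and for both pooled, and an IDR-thresholded list of 570 ce11 regions. Each region carries a signal value, deposited by the authors, taken as its enrichment over a control. Read depth, aligner and peak caller: not given in the sources used here. Intervals are exact (Clopper-Pearson) over regions or genes, and cover counting error only.

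Distances, isotypes (RefSeq product, matched by WormBase ID for 612 of 612 genes) and motifs were computed in Python 3.11.15 with pandas 2.3.3, numpy 2.4.6 and SciPy 1.17.1 on Ensembl release 115 genes and the RefSeq WBcel235 genome. Gene, region and summit coordinates are 1-based on ce11. A library region matched by at least 1 bp of overlap, and the one of highest signal was taken. The procedure was tested on 200 planted regions, and recovered all of their distances. The 22 mitochondrial tRNA genes were left out. Members and gene lists were chosen with earlier results of these data known. Genes named are those of the 10 highest regions, the highest of each isotype, the 3 highest and 3 lowest library ratios among reproducible regions, and the ends of the largest identical set; other named genes were chosen after their values were seen. Upstream sequences are shown for the largest identical set with no copy on chromosome I, from which none is printed. Alternatives varied the distance, the list called reproducible, the library, the match and uniqueness.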

Additional observations from a re-analysis of the deposited data

How the results depend on the processing

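No paired analysis was possible because both libraries belong to 1 group. Of 69 alternatives to the main results, 39 stayed within the counting interval or spread of the main value and 30 did not. Restriction to windows at least 90% unique moved the reproducible share to 1.69% in all, 2.86% on X, 1.20% on autosomes, 3.45% at intergenic and 0% at intronic tRNA genes, the median signal to 28.5, the share found in both libraries to 66.1% and the share of genes with a region to 19.3%. With the 285 highest regions as the list, the shares were 9.24% in all, 17.8% on X, 3.60% on autosomes and 9.73% at intergenic genes, and with the 858 highest they were 23.4, 34.2, 16.2 and 27.0%, and 19.1% at intronic genes. A shorter or longer list holds fewer or more regions by construction. Distances of 100 and 500 bp gave a median signal of 44.7 and 38.1, a share of genes with a region of 49.5 and 65.2% and a median summit 19 and 22.5 bp into the gene, and overlap with the gene gave 22 bp, against 25 bp. Matching libraries by summits within 100 bp or by 50% reciprocal overlap gave 51.4 and 70.1% found in both.

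With replicate 1 alone and then replicate 2 alone, the median signal was 21.9 and 23.5, on that list's own scale, the median summit 25 and 26 bp, and the share of genes with a region 52.3 and 56.5%. A single library has no reproducible list, so the 570 highest regions of its own list took that place. The share of tRNA regions among them was 16.7 and 17.1% in all, 23.2 and 29.4% on X, and 11.4 and 9.55% on autosomes. It was 18.0 and 18.8% at intergenic and 14.6 and 14.9% at intronic genes. X stayed above the autosomes in each of these alternatives, by 1 region of 35 against 1 of 83 among unique windows. The cause of these shifts was not tested. Of 147 alternatives by isotype, 4 left the interval.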

Other observations

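The annotation also holds 209 tRNA pseudogenes. Of these 45 had a region within 250 bp (21.5%), against 58.0% of the 612 tRNA genes (interval 54.0 to 62.0%). Among the 45 regions near a tRNA pseudogene and no tRNA gene, 2 were reproducible (4.44%, interval 0.543 to 15.1%), and the median signal was 28.8, close to the 27.9 of all other regions. These 2 were among the 18 with a summit in the pseudogene or within 50 bp (11.1%, interval 1.38 to 34.7%). That interval overlaps the one for tRNA regions at the same distance, 58 of 255 (22.7%, 17.7 to 28.4%). The median unique share of the 45 windows was 100%. Of tRNA windows at least 90% unique, 1.69% were reproducible, with a median signal of 28.5. Whether genes and pseudogenes differ at matched distance and uniqueness was not tested. These counts were made after the data had been seen.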
